A study of Homo sapiens with 12 samples.

Results

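A set of 10 genes of heme breakdown and iron handling was followed through an RNA sequencing study of KYSE70, a human esophageal squamous cell carcinoma line, treated with mitoxantrone or pyrimethamine. The rows were picked by gene symbol in the deposited table of all samples: HMOX1, BLVRA, BLVRB, SLC48A1, FECH, FTH1, FTL, NCOA4, TFRC and STEAP3. Each symbol matched 1 row, which made 10 of the 58884 genes in the table. All 12 libraries came from the same line, grown in serum-containing medium, and fall into 3 groups of 4. Cells of the first group were given 20 nM mitoxantrone for 72 h, cells of the second were given 10 µM pyrimethamine for 72 h, and the control cells were untreated. Mitoxantrone is used against cancer and acts on DNA and topoisomerase II, and pyrimethamine is an antifolate used against malaria and toxoplasmosis. The title of the series calls both drugs inhibitors of NRF2, the product of NFE2L2 and an activator of antioxidant genes, for which HMOX1, FTH1 and FTL are textbook target genes in human cells. The labels name no vehicle for the control and do not tie the libraries of 1 group to separate cultures, so p-values measure only the spread between these libraries, which may be technical.

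Heme oxygenase opens the heme ring and releases iron, carbon monoxide and biliverdin, which biliverdin reductases turn into bilirubin. The freed iron can be stored in ferritin, a hollow shell of heavy and light chains, and iron from outside enters through the transferrin receptor and is reduced in the endosome. When iron is scarce, the iron regulatory proteins bind a short hairpin, the iron-responsive element, at the start of the ferritin messengers to block their translation and at the end of the transferrin receptor messenger to protect it from decay.

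The hairpins are the sequence feature that sets FTH1, FTL and TFRC apart from the other genes, and they are shown because sequencing of RNA sees the level of these messengers and not their translation. They were found in the GENCODE release 29 transcripts as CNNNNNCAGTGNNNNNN, on the sense strand of untranslated regions only, where the 5 bases after the first C pair with the last 5 bases, G to U pairs included. Capitals mark this core, which spans the bulged C, the upper stem and the loop, and lower case marks the lower stem. FTH1 holds 1 element in its 5′ untranslated region at chr11:61967574-61967602 of GRCh38, minus strand, and FTL holds 1 at chr19:48965335-48965363, plus strand.
FTH1 5′ element: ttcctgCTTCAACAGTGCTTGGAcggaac
FTL 5′ element: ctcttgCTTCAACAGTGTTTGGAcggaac
In the 3′ untranslated region of TFRC the search matched 4 elements on the minus strand of chromosome 3. An element that departs from the pattern in letters or pairing would be missed, so more may be present. The 4 matches lie at chr3:196050979-196051007, chr3:196050575-196050603, chr3:196050510-196050538 and chr3:196050463-196050491, given in the order of the messenger.
TFRC 3′ element 1: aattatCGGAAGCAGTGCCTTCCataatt
TFRC 3′ element 2: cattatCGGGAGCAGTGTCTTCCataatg
TFRC 3′ element 3: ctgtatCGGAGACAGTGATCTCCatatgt
TFRC 3′ element 4: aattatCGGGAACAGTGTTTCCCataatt
The FTH1 and FTL elements differ at 3 of 29 bases, and at 1 of 17 in the core. The search matched 168 of 19669 protein-coding genes (0.854%), 36 in a 5′ region and 132 in a 3′ region. It found no match in the untranslated regions of the other 7 genes, which says only that these letters with this pairing are not there.

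Each library held between 47.5 M and 94.5 M reads in genes, and the normalized counts below are these reads divided by 1 factor per library. Every one of the 10 genes was deeply covered, with 1249 to 287972 reads per gene and library. Mitochondrially encoded genes took 3.71% ± 0.321 of the reads in mitoxantrone libraries, 7.65% ± 0.621 in pyrimethamine libraries and 6.43% ± 0.230 in control libraries (SD, n = 4 each), and their part in the results was not tested. Mitoxantrone replicate 1 stood apart from its group with 3.23% against 3.84% to 3.89%. Without it 10 of the genes were called against the control and 9 against pyrimethamine, beside 11717 and 12900 of all 16950 genes tested. All 8 squamous markers passed the filter on low values, and their summed level was 321331 to 344904 normalized counts with mitoxantrone, 408752 to 433759 with pyrimethamine and 333536 to 358550 in the control. Most of this sum was KRT5. The means of KRT5, KRT6A and PAX9 were higher with pyrimethamine than in the control (KRT5 270042 against 219927). Those of the other squamous markers were lower (TP63 12861 against 16791). Of 10 erythroid markers 1 passed, with a summed level of 1.91 to 7.42 with mitoxantrone, 17.8 to 31.8 with pyrimethamine and 6.23 to 12.2 in the control. Of 8 macrophage markers 3 passed and VSIG4 was at 0, with a summed level of 15.3 to 28.9 with mitoxantrone, 121.8 to 207 with pyrimethamine and 67.5 to 108.5 in the control. Of 5 fibroblast markers COL1A1 and PDGFRB passed, with DCN, LUM and COL1A2 at 3.59 or less in every library, and the sum, nearly all COL1A1, was 3877 to 5212 with mitoxantrone, 10529 to 11870 with pyrimethamine and 14569 to 15368 in the control. Of 4 endothelial markers VWF and TEK passed, with a summed level of 186 to 252 with mitoxantrone, 1101 to 1193 with pyrimethamine and 967 to 1091 in the control. The part of these markers in the results was not tested. Since this is bulk RNA, fewer cells expressing a gene and less RNA per cell cannot be told apart.

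In control cells the 2 ferritin chains were by far the highest of the 10 genes once counts were divided by the length of the exons. FTH1 had 69325 and FTL 67302 normalized counts per kb of exon, and their library ranges overlapped. NCOA4 followed with 4847 and TFRC with 4479, then BLVRA with 2850 and BLVRB with 2781, whose ranges overlapped each other, SLC48A1 with 1819, HMOX1 with 1353, FECH with 965 and STEAP3 with 751. Other neighbours in this order did not overlap. In mitoxantrone libraries TFRC stood above NCOA4 and SLC48A1 above BLVRB, neither pair overlapping, and FECH and STEAP3 overlapped at the low end. In pyrimethamine libraries HMOX1 stood below FECH, with 569 to 679 normalized counts per kb against 762 to 803, and BLVRB overlapped BLVRA. The closeness of the ferritin chains depended on the length used. With the longest transcript as the length, FTH1 had 114507 and FTL 67302 normalized counts per kb in the control, with no overlap of library ranges, and 8 of the 10 genes kept their rank.

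**Figure D1:**
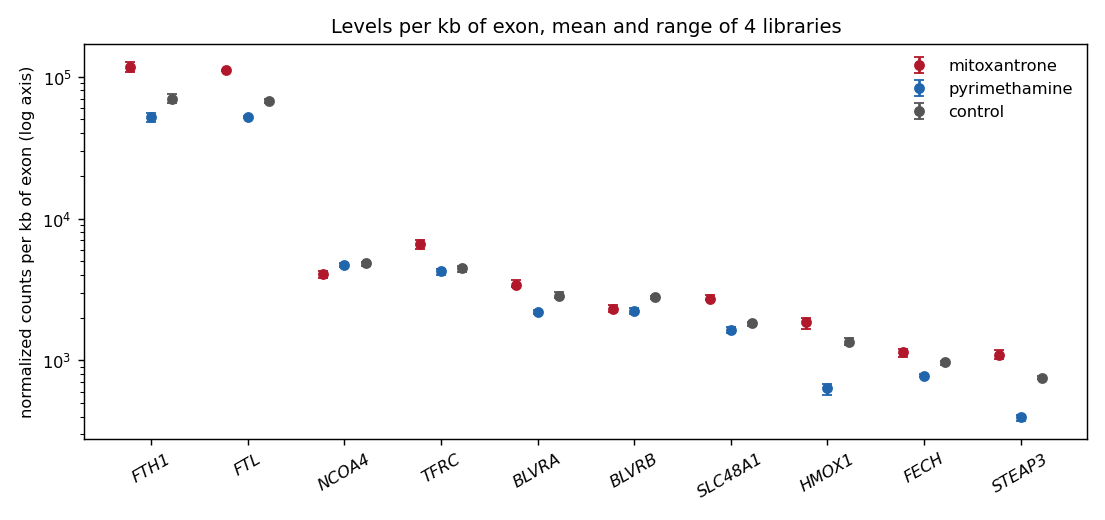
Normalized counts per kb of exon (log axis) for the 10 genes, with points at the mean and bars over the range of 4 libraries for mitoxantrone, pyrimethamine and control. FTH1 and FTL lie more than 10 times above every other gene in each group, and the widest gaps between groups are those of HMOX1 and STEAP3.

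With mitoxantrone, 8 of the 10 genes rose and 2 fell relative to untreated cells. Among the fitted changes, those of the ferritin chains were the largest rises, FTH1 by 1.69-fold and FTL by 1.66-fold, followed by SLC48A1, TFRC, STEAP3 and HMOX1 at 1.36-fold to 1.49-fold, and by BLVRA and FECH with log2 changes of 0.26 and 0.24. BLVRB and NCOA4 fell, by 1.21-fold and 1.19-fold. Calls rest on limma with Benjamini-Hochberg adjustment over the 16950 genes tested, at an adjusted p under 0.05, and at this threshold 69.3% of all tested genes were called, 33.5% higher and 35.8% lower. The mitoxantrone and control libraries did not overlap for any of the 10 genes, against 60.9% of all tested genes. The median change of the 10 genes was 0.49 on the log2 scale, beside -0.0080 over all tested genes. Under quantile normalization the log2 change of FTL was 0.40, below the 0.50 of SLC48A1 and of STEAP3 and the 0.56 of FTH1, and that of TFRC was 0.33. With every library scaled to 1 common total, BLVRA and FECH gave 0.16 and 0.14, all of these changes remaining called.

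With pyrimethamine, 8 of the 10 genes fell relative to the same control libraries and none rose. HMOX1 fell by 2.13-fold and STEAP3 by 1.87-fold, and FTH1, BLVRA, FTL, BLVRB, FECH and SLC48A1 fell by 1.33-fold or less. TFRC and NCOA4 did not pass the threshold. Over all tested genes 53.3% were called, 26.4% higher and 26.9% lower, and 2.35% fell by 2-fold or more, as HMOX1 did. Pyrimethamine and control libraries did not overlap for 8 of the 10 genes, against 51.1% of all genes, and the median change of the 10 was -0.35 beside 0.0018 over all genes. TFRC and NCOA4 were also called lower with every library scaled to 1 common total (log2 change -0.14 and -0.11, adjusted p = 0.0117 and 0.0140 in limma) and under quantile normalization (-0.17 and -0.09, adjusted p = 0.00177 and 0.0499).

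Set directly against pyrimethamine, mitoxantrone gave higher levels of 8 of the 10 genes and a lower level of NCOA4, while BLVRB was not called. The differences reached 2.91-fold for HMOX1, 2.72-fold for STEAP3, 2.24-fold for FTH1 and 2.15-fold for FTL, and SLC48A1, BLVRA, TFRC and FECH were higher by 1.46-fold to 1.68-fold. Between the drugs 76.4% of all tested genes were called, 36.9% higher and 39.5% lower with mitoxantrone, and 8.06% were higher by 2-fold or more. The libraries of the 2 drugs did not overlap for 9 of the 10 genes, against 68.8% of all genes. The median difference was 0.70 beside -0.024 over all genes, and the 3 comparisons share libraries in pairs, so their results are not independent of each other.

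**Figure D2:**
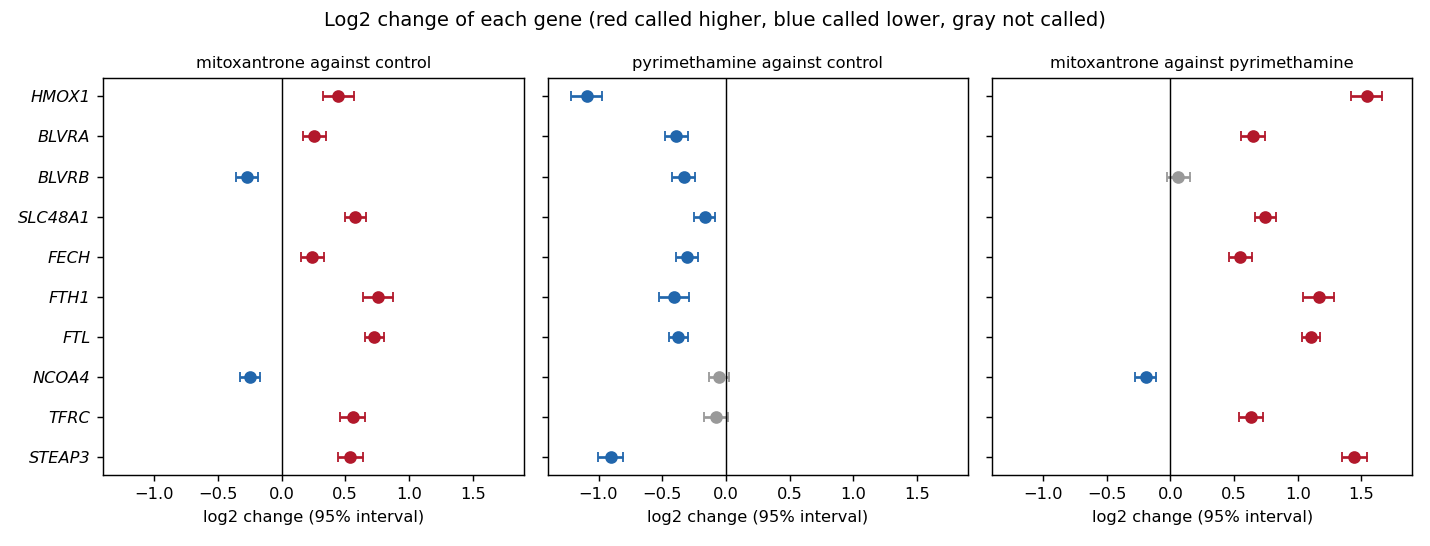
Log2 change of each of the 10 genes (dots) with its 95% interval (bars) in the 3 comparisons, red where called higher, blue where called lower and gray where not called. With mitoxantrone 8 genes are called to the right of 0 against either group, and with pyrimethamine against the control 8 genes are called to the left of 0, with HMOX1 at -1.09 and STEAP3 at -0.90, while the intervals of TFRC and NCOA4 cross 0.

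The enzymes of heme breakdown were followed first. HMOX1, the inducible heme oxygenase (chr22:35380361-35394214 of GRCh38, plus strand), had 3988, 4779, 4466 and 4538 normalized counts in the 4 mitoxantrone libraries, 1633, 1597, 1509.7 and 1368 in the pyrimethamine libraries, and 3256, 3430.2, 3103 and 3228 in the control libraries. The 3 groups did not overlap, with every mitoxantrone library above and every pyrimethamine library below the controls. The log2 change was 0.45 for mitoxantrone (SE 0.0576, adjusted p = 5.95e-07 in limma) and -1.09 for pyrimethamine (SE 0.0576, adjusted p = 2.53e-12), and the difference between the drugs was 1.54 (adjusted p = 5.05e-16). HMOX1 had the widest range of group means among the 10 genes.

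HMOX2, the constitutive heme oxygenase and not one of the 10 genes, is given because it shares the reaction with HMOX1. It had 3342, 3266, 3351 and 3316 normalized counts with mitoxantrone, 8091, 7822, 7884 and 7568 with pyrimethamine, and 5859, 6177, 6114 and 6413 in the control. Its order across the groups was the reverse of that of HMOX1, with no overlap between groups. HMOX2 fell with mitoxantrone (log2 change -0.89, adjusted p = 9.46e-15) and rose with pyrimethamine (0.35, adjusted p = 5.55e-08).

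The ratio of HMOX1 to HMOX2 normalized counts within a library was 1.34 ± 0.112 with mitoxantrone, 0.195 ± 0.0108 with pyrimethamine and 0.530 ± 0.0289 in the control (SD, n = 4 each). The mean log2 ratio differed by 1.33 between mitoxantrone and control, by -1.45 between pyrimethamine and control and by 2.78 between the drugs. Each difference had an exact two-sided permutation p of 0.0286, the smallest that 70 arrangements of 4 against 4 libraries allow, and 0.0514 after Benjamini-Hochberg adjustment over 9 ratio tests. None of the ratio tests passed 0.05 after adjustment, and the libraries of the 3 groups did not overlap in this ratio.

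BLVRA, the main adult biliverdin reductase (chr7:43758680-43807342, plus strand), had 5989, 6117, 6696 and 6030.2 normalized counts with mitoxantrone, 4140.4, 3849, 3836 and 4003 with pyrimethamine, and 5045, 5226, 4997 and 5493 in the control. All 4 mitoxantrone libraries were above and all 4 pyrimethamine libraries below every control library. BLVRA rose with mitoxantrone (log2 change 0.26, SE 0.0435, adjusted p = 2.04e-05) and fell with pyrimethamine (-0.39, SE 0.0435, adjusted p = 1.56e-07).

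BLVRB, which reduces the biliverdin isomer that prevails in fetal life and also flavins (chr19:40447765-40465840, minus strand), had 3836, 3691, 4132 and 3914 normalized counts with mitoxantrone, 3661, 3557, 3964 and 3742 with pyrimethamine, and 4613, 4783, 4569 and 4825 in the control. Both drug groups lay below every control library and overlapped each other. BLVRB fell with mitoxantrone (log2 change -0.27, adjusted p = 8.95e-06) and with pyrimethamine (-0.33, adjusted p = 1.17e-06), while the difference between the drugs was 0.06 with a 95% interval of -0.03 to 0.15 (adjusted p = 0.198).

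The pair of reductases gave a BLVRA to BLVRB ratio of 1.59 ± 0.0536 with mitoxantrone, 1.06 ± 0.0686 with pyrimethamine and 1.10 ± 0.0226 in the control (SD, n = 4 each). Every mitoxantrone library lay above all others. The mean log2 ratio differed by 0.53 between mitoxantrone and control and by 0.59 between the drugs (exact permutation p = 0.0286 and adjusted 0.0514 for both), and by -0.06 between pyrimethamine and control (exact permutation p = 0.314, adjusted 0.471), where leaving out pyrimethamine replicate 1 gave an adjusted exact p of 0.0429.

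**Figure D3:**
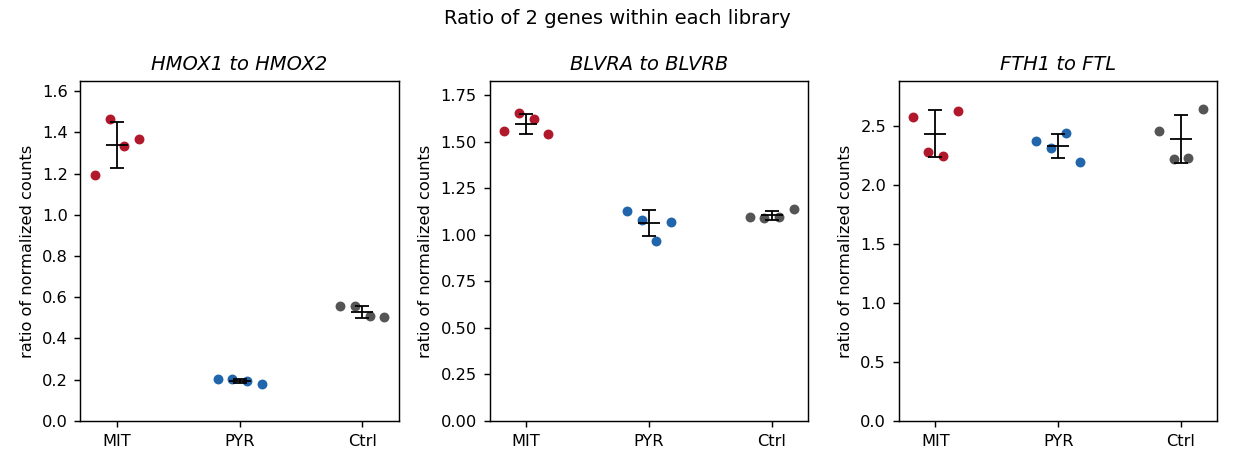
Ratio of normalized counts of HMOX1 to HMOX2, BLVRA to BLVRB and FTH1 to FTL in each library (dots), with the mean and SD of 4 libraries (bars), for mitoxantrone (MIT), pyrimethamine (PYR) and control (Ctrl). The first ratio separates all 3 groups, the second separates mitoxantrone from the others, and the third, at 2.33 to 2.43 on average, separates none.

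Heme supply was represented by a transporter and a synthetic enzyme. SLC48A1, which carries heme out of the lysosome into the cytosol (chr12:47753916-47782753, plus strand), had 14234, 13069, 13133 and 13111 normalized counts with mitoxantrone, 7668, 8009.6, 8491 and 7784 with pyrimethamine, and 8965, 9096, 8622 and 9127 in the control. Mitoxantrone libraries stood well above the rest, and pyrimethamine libraries lay just below the controls, with 8491 as the highest against 8622 as the lowest control. The log2 change was 0.58 with mitoxantrone (SE 0.0394, adjusted p = 2.85e-11) and -0.17 with pyrimethamine (SE 0.0394, adjusted p = 0.00129), the smallest called fall of the 10 genes.

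FECH, ferrochelatase, which inserts iron into protoporphyrin at the end of heme synthesis (chr18:57548283-57586772, minus strand), had 5320.3, 4718, 5331 and 5064 normalized counts with mitoxantrone, 3517, 3407, 3429 and 3592 with pyrimethamine, and 4381, 4142, 4291 and 4447 in the control. The groups did not overlap, with mitoxantrone highest and pyrimethamine lowest. FECH rose with mitoxantrone (log2 change 0.24, SE 0.0423, adjusted p = 3.15e-05) and fell with pyrimethamine (-0.31, SE 0.0423, adjusted p = 2.86e-06). Of the other genes of heme synthesis, 3 of the 7 tested rose (42.9%, beside 33.5% of all tested genes) and 4 fell (57.1%, beside 35.8%) with mitoxantrone. With pyrimethamine 2 rose (28.6%, beside 26.4%) and 3 fell (42.9%, beside 26.9%), or 1 and 3 with 1 common total and 3 and 2 under upper-quartile scaling.

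Iron storage was represented by the chains of ferritin and by its receptor. FTH1, the ferritin heavy chain that carries the ferroxidase site (chr11:61959718-61967660, minus strand), had 249156, 224311, 220346 and 258257 normalized counts with mitoxantrone, 108776, 104248, 113515 and 97841 with pyrimethamine, and 141652, 133412, 135482 and 152369.7 in the control. No library of a group overlapped another group. FTH1 rose with mitoxantrone (log2 change 0.76, SE 0.0582, adjusted p = 2.11e-10) and fell with pyrimethamine (-0.41, SE 0.0582, adjusted p = 4.55e-06).

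FTL, the ferritin light chain that aids mineral formation in the shell (chr19:48965301-48966878, plus strand), had 96684, 98526, 98198 and 98299.8 normalized counts with mitoxantrone, 45913, 45187, 46609 and 44635 with pyrimethamine, and 57669, 60099, 60919.6 and 57678 in the control. The replicates lay close together, with a coefficient of variation of 0.858% with mitoxantrone, 1.89% with pyrimethamine and 2.83% in the control, while FTH1 had 7.80% with mitoxantrone, 6.29% with pyrimethamine and 6.05% in the control. FTL rose with mitoxantrone (log2 change 0.73, SE 0.0350, adjusted p = 1.07e-13) and fell with pyrimethamine (-0.37, SE 0.0350, adjusted p = 1.27e-08).

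The balance of heavy and light chain messengers showed no difference past the threshold. The FTH1 to FTL ratio of normalized counts was 2.43 ± 0.199 with mitoxantrone, 2.33 ± 0.104 with pyrimethamine and 2.39 ± 0.203 in the control (SD, n = 4 each), and all 3 groups overlapped. The mean log2 ratio differed by 0.03 between mitoxantrone and control and by -0.03 between pyrimethamine and control (exact permutation p = 0.657 for both), and by 0.06 between the drugs (exact permutation p = 0.371, adjusted 0.478). The sign of the difference from the control turned without mitoxantrone replicate 1 or 4 or control replicate 2 or 3 for mitoxantrone (range -0.011 to 0.078 over single libraries left out), and without control replicate 4 for pyrimethamine (range -0.067 to 0.017). Together the 2 chains took 0.502% ± 0.0321 of all reads with mitoxantrone, 0.234% ± 0.0120 with pyrimethamine and 0.320% ± 0.0118 in the control.

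Ferritin counts can be touched by copies and by overlapping genes. The table lists 25 FTH1 pseudogenes, 15 of them with reads, which summed to 715 normalized counts with mitoxantrone (0.301% of the FTH1 level), 362 with pyrimethamine (0.341%) and 468 in the control (0.332%). Of 16 FTL pseudogenes, 4 had reads, and these summed to at most 0.0928% of the FTL level in any group. BEST1 on the opposite strand overlaps 62.4% of the FTH1 exon length, and its own counts averaged 592 with mitoxantrone, 248 with pyrimethamine and 348 in the control. How the authors' counting treated strand and shared reads is not given, so FTH1 and BEST1 reads in the overlap cannot be told apart. The pseudogene sums hold only reads assigned to the pseudogenes, so they do not bound the part of copies in the ferritin counts. The exons of STEAP3 are overlapped in part by STEAP3-AS1, which averaged 2.42 to 3.86 normalized counts in the groups, and those of SLC48A1 over 2.34% of their length by HDAC7 and RAPGEF3.

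NCOA4, the receptor that takes ferritin to the lysosome for breakdown (chr10:46005088-46030714, minus strand), fell with mitoxantrone while both ferritin genes rose. It had 15548, 16753, 17369.7 and 16874 normalized counts with mitoxantrone, 19105, 18701, 18449.6 and 19877 with pyrimethamine, and 20019, 19939, 20183 and 18937 in the control. Every mitoxantrone library lay below all others, and pyrimethamine and control overlapped. NCOA4 fell with mitoxantrone against the control (log2 change -0.25, SE 0.0385, adjusted p = 6.71e-06) and against pyrimethamine (-0.19, adjusted p = 1.03e-04), while pyrimethamine against the control gave -0.05 with a 95% interval of -0.14 to 0.03 (adjusted p = 0.243).

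Iron uptake was represented by the transferrin receptor and an endosomal reductase. TFRC, which takes up iron-loaded transferrin (chr3:196027183-196082189, minus strand), had 47887, 55211, 52955 and 51918 normalized counts with mitoxantrone, 34739.6, 33389, 31332 and 34283 with pyrimethamine, and 36250.1, 36107, 35903 and 33035 in the control. Mitoxantrone libraries were all above the others, and pyrimethamine and control libraries overlapped through control replicate 4, the lowest of its group. TFRC rose with mitoxantrone (log2 change 0.56, SE 0.0456, adjusted p = 5.82e-10), and with pyrimethamine its log2 change was -0.08 with a 95% interval of -0.17 to 0.02 (adjusted p = 0.151). Ferritin and TFRC messengers, which carry the elements shown above at opposite ends, were all higher with mitoxantrone.

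STEAP3, which reduces ferric iron in the endosome (chr2:119223831-119265652, plus strand), had 5347, 5097, 4861 and 4620.4 normalized counts with mitoxantrone, 1884, 1890.1, 1708 and 1839 with pyrimethamine, and 3367, 3559, 3339.7 and 3429.6 in the control. The groups were widely apart, with the lowest mitoxantrone library above the highest control and the highest pyrimethamine library below the lowest control. STEAP3 rose with mitoxantrone (log2 change 0.54, SE 0.0473, adjusted p = 1.73e-09) and fell with pyrimethamine (-0.90, SE 0.0473, adjusted p = 2.38e-12). Its range of 1.44 between group means on the log2 scale was next to the 1.54 of HMOX1. BLVRB and NCOA4 had the narrowest ranges, 0.33 and 0.25.

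**Figure D4:**
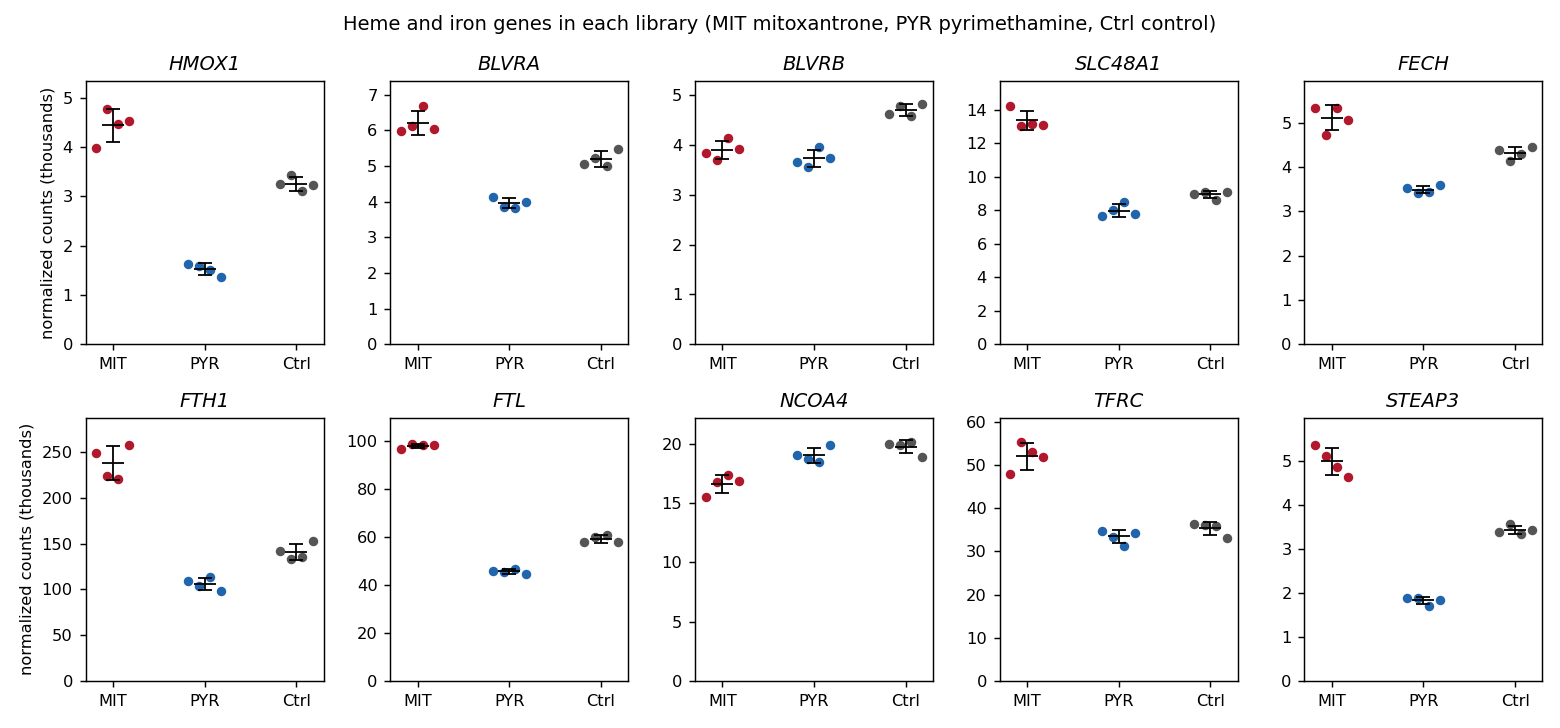
Normalized counts (axis units as labelled) of each of the 10 genes in every library (dots), with the mean and SD of 4 libraries (bars), for mitoxantrone (MIT), pyrimethamine (PYR) and control (Ctrl). The mean is highest with mitoxantrone and lowest with pyrimethamine in all genes but BLVRB and NCOA4, where the control mean is highest.

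NFE2L2, which encodes NRF2, and BACH1, a heme-binding repressor of HMOX1, were measured beside the genes they are known to act on. NFE2L2 averaged 7899.8 normalized counts with mitoxantrone, 4525 with pyrimethamine and 4879 in the control. It rose with mitoxantrone (log2 change 0.69, adjusted p = 6.54e-12), and with pyrimethamine it gave -0.11 (adjusted p = 0.0389), a call lost in 9 of 21 alternatives, among them those without control replicate 1, 2 or 3 (adjusted p = 0.0825, 0.134 and 0.0557) or pyrimethamine replicate 1, 3 or 4 (0.0878, 0.0918 and 0.0907), with adjusted p from 0.00423 to 0.167 over all of them. BACH1 averaged 2623 with mitoxantrone, 3824 with pyrimethamine and 2825 in the control. BACH1 rose with pyrimethamine (0.44, adjusted p = 2.95e-08), and with mitoxantrone it gave -0.11 (adjusted p = 0.0316), a call lost in 6 of 21 alternatives, among them those without control replicate 1 or 4 (adjusted p = 0.0824 and 0.0764) or mitoxantrone replicate 2 or 4 (0.115 and 0.0856), with adjusted p from 3.84e-04 to 0.115 over all of them.

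Promoter windows from 250 bases before to 50 after the start site, from RefSeq on GRCh38.p14, were searched on both strands for the NRF2 element TGACNNNGC, the AP-1 site TGANTCA, which overlaps it in part, and the ATF4 element TGATGNAA. Windows were found for BLVRA, BLVRB, FECH, FTL, NCOA4, SLC48A1, STEAP3 and TFRC, and not for HMOX1 and FTH1. Only FECH and NCOA4 had a match. FECH held the NRF2 element once on the reverse strand, 38 bases before the start site, and NCOA4 held it 24 bases after the start in 1 of its windows and an AP-1 site 230 bases before the start in another. The NRF2 element occurs in 13.3% of 35116 such windows, the AP-1 site in 7.71% and the ATF4 element in 3.62%, and the absence of a match says nothing of a factor that acts from elsewhere.

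Of 93 further genes of heme and iron biology in the table, 78 passed the filter. With mitoxantrone 37 of these rose (47.4%, beside 33.5% of all tested genes) and 27 fell (34.6%, beside 35.8%), with a median log2 change of 0.07. With pyrimethamine 29 rose (37.2%, beside 26.4%) and 25 fell (32.1%, beside 26.9%), with a median of 0.06. The direction of these counts turned with the scaling, since with every library scaled to 1 common total 27 rose and 36 fell with mitoxantrone and 22 rose and 28 fell with pyrimethamine, and upper-quartile scaling gave 37 and 21 with pyrimethamine.

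In the mitoxantrone comparison, PCBP1, a chaperone that loads iron into ferritin, rose most among the storage partners (log2 change 0.76, adjusted p = 2.12e-14), with 25703 normalized counts against 15222 in the control. ATF4, a stress factor, rose most among the 11 transcription factors (1.46, adjusted p = 2.08e-18), with 35531 against 12921. Of the 11 factors 5 rose (45.5%, beside 33.5% of all tested genes) and 5 fell (45.5%, beside 35.8%). ABCG2, which exports porphyrins, fell most among 16 genes of heme transport and binding (-2.02, adjusted p = 1.80e-15). In that list 6 rose (37.5%, beside 33.5% of all tested genes) and 7 fell (43.75%, beside 35.8%), or 4 and 9 with 1 common total. The first enzyme of heme synthesis, ALAS1, fell as well (-0.57, adjusted p = 6.31e-11).

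Among 10 tested genes of iron uptake and movement, 4 rose (40%, beside 33.5% of all tested genes) and 4 fell (40%, beside 35.8%) with mitoxantrone. The metal carrier SLC39A8 fell most (-1.97, adjusted p = 1.36e-05). Its level was low, 7.42 to 34.1 normalized counts with mitoxantrone and 66.7 to 88.2 in the control. CP, the plasma ferroxidase, fell (-2.12, adjusted p = 4.95e-10), with 27.2 against 119.9 normalized counts. It was the 1 called gene of 3 tested for iron export (33.3%, beside 35.8% of all tested genes called lower). Of the iron regulatory proteins, IREB2 rose (0.22, adjusted p = 6.92e-05) and ACO1 fell (-0.39, adjusted p = 1.60e-08). FBXL5, the iron-sensing ligase subunit that marks IREB2 for breakdown, was called higher (0.11, adjusted p = 0.0299), a call lost in 7 of 21 alternatives, with adjusted p from 0.0166 to 0.821 over all of them. These include 1 common total (0.01), quantile normalization (0.07) and fits without control replicate 2, 3 or 4 (adjusted p = 0.0602, 0.0606 and 0.0543) or mitoxantrone replicate 4 (0.0711). In iron-sulfur cluster assembly 15 of 24 genes rose (62.5%, beside 33.5% of all tested genes) and 4 fell (16.7%, beside 35.8%), but 8 rose and 7 fell with 1 common total and 13 and 7 under quantile normalization, the chaperone HSPA9 rising most (0.57, adjusted p = 3.25e-10) and IBA57 falling most (-0.66, adjusted p = 2.04e-08).

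With pyrimethamine, ATF4 fell (-1.24, adjusted p = 3.12e-16), with 5453 normalized counts against 12921 in the control, while the small Maf protein MAFF rose (1.05, adjusted p = 1.39e-10). Of the 11 factors 6 rose (54.5%, beside 26.4% of all tested genes) and 3 fell (27.3%, beside 26.9%), or 6 and 5 with 1 common total. ABCB10, a mitochondrial transporter, fell most in heme transport (-0.81, adjusted p = 5.74e-12). In that list 6 of 16 rose (37.5%, beside 26.4% of all tested genes) and 4 fell (25%, beside 26.9%). With 1 common total 4 rose and 4 fell, and upper-quartile scaling gave 8 and 4. PCBP2, another iron chaperone, fell most among the storage partners (-0.50, adjusted p = 4.34e-11). FBXL5 fell (-0.44, adjusted p = 4.92e-08). In its list of 3 genes, with ACO1 and IREB2, 2 fell (66.7%, beside 26.9% of all tested genes) and none rose (beside 26.4%), where upper-quartile scaling called 1 higher.

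In the remaining lists, CP rose with pyrimethamine (0.98, adjusted p = 5.55e-05), with 238 against 119.9 normalized counts, and 2 of the 3 tested export genes rose (66.7%, beside 26.4% of all tested genes). Iron uptake held 2 genes that rose (20%, beside 26.4% of all tested genes) and 4 that fell (40%, beside 26.9%) among 10, or 3 and 3 under upper-quartile scaling. The metal carrier SLC11A2 fell most (-0.27, adjusted p = 1.04e-04). The far point of that list in the plot, LCN2, a carrier of iron-binding siderophores, was one of the 2 that rose (2.13, adjusted p = 0.00365) and is named because it stands out. Its level was low, 26.6 ± 13.1 normalized counts with pyrimethamine and 6.05 ± 4.65 in the control (SD, n = 4 each), and the groups overlapped. In iron-sulfur cluster assembly 9 of 24 rose (37.5%, beside 26.4% of all tested genes) and 7 fell (29.2%, beside 26.9%), or 5 and 7 with 1 common total, GLRX5 rising most (0.45, adjusted p = 3.86e-09) and HSPA9 falling most (-0.57, adjusted p = 1.01e-09).

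**Figure D5:**
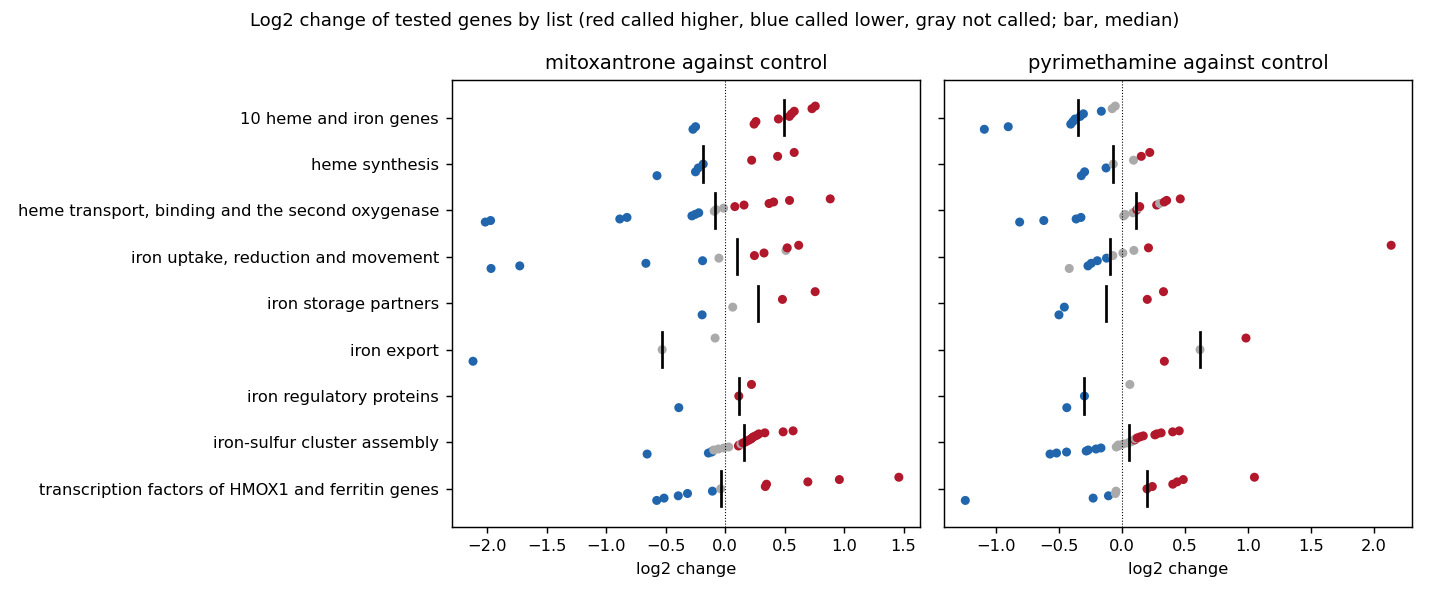
Log2 change of every tested gene (dots) in the 10 genes and 8 further lists, against the control, for mitoxantrone (left) and pyrimethamine (right), with a bar at each median. The 10 genes have medians of 0.49 and -0.35, and the medians of the other lists lie on both sides of 0.

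Between the drugs, 32 of the 78 further genes were higher with mitoxantrone (41.0%, beside 36.9% of all tested genes) and 35 lower (44.9%, beside 39.5%). Their median difference was 0.0022. ATF4 had the highest rise among them (log2 difference 2.70, adjusted p = 3.32e-23), and CP the largest fall (-3.10, adjusted p = 4.11e-13). PCBP1 was higher by 1.21 (adjusted p = 2.97e-18), with 25703 normalized counts with mitoxantrone and 11073 with pyrimethamine, and HSPA9 was higher by 1.14 (adjusted p = 1.22e-15). ABCG2 had a log2 difference of -2.48 (adjusted p = 1.57e-17), with 297 normalized counts with mitoxantrone and 1650.0 with pyrimethamine.

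The genes whose values over the 12 libraries lay nearest to those of 3 of the 10 genes were sought by the root mean square difference of log2 values after subtraction of the control mean, with 12097 genes searched, each averaging 100 or more. Nearest to HMOX1 were ADAMTS16, a secreted metalloproteinase (0.0847), LRRN2 (0.116) and LENG9 (0.118). Nearest to STEAP3 were NEFL, the neurofilament light chain (0.0753), PLXDC2 (0.0856) and YIF1B (0.0896). Nearest to FTH1 were XBP1, a factor of the unfolded protein response (0.0680), ANKRD9 (0.0692) and DCLRE1C, a DNA repair nuclease (0.0765). None of these 9 is among the 10 genes or the further lists.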

How the data were processed

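The deposited values are a normalized signal (counts per gene and library) obtained, by the authors, through division of reads by a factor for each library. Per the submitters' processing notes, STAR 2.6.90c, featureCounts 1.5.1, cutadapt 1.12 and FastQC 0.11.5 were used, and hg38 and mm10 are named as builds. The annotation, strand setting and scaling tool are not given in the sources used here. Whole reads were recovered from the table, with 100% of values whole within 0.01 read. Each library's factor equalled the median ratio of its reads to the geometric mean over libraries, among genes with reads in every library.

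The 16950 genes that reached a value of 10 in 4 or more libraries were fitted with limma 3.58.1 in R 4.3.3 on log2(value + 1) of the 12 libraries together, without covariates, with eBayes with a trend, two-sided tests and Benjamini-Hochberg adjustment. This scale understates changes of low genes. On the recovered reads, edgeR 4.0.16 called 11765, 9286 and 12943 genes, and DESeq2 1.42.0 called 11834, 9318 and 12960, for mitoxantrone against control, pyrimethamine against control and mitoxantrone against pyrimethamine, beside 11745, 9042 and 12956 in limma. The limma step was also run on simulated data in which few genes changed and the library factors were known. That run therefore does not test the scaling.

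Gene positions and exon lengths came from GENCODE release 29, joined by gene identifier (58611 of 58884 matched). Ratios were tested with exact permutation tests. The 10 genes and the further lists were chosen with earlier results of these data known. Named genes were the 10, NFE2L2, BACH1, the called gene with the largest rise and fall of each list and comparison whose higher group averaged 50 or more (not all are described), and the 3 nearest genes to each of the 3 widest-ranging of the 10. HMOX2, BEST1, LCN2 and, with mitoxantrone, FBXL5 were added. Alternatives covered pseudocount, filter, scaling, variance model, tool, a replicate block and each library left out.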

Additional observations from a re-analysis of the deposited data

Results flagged for a closer look

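In 39 groups of 4 libraries, for the 10 genes and the 3 ratios, 3 groups held a library far from the others by Dixon's test at 95%, where chance flags about 1 in 20 groups. SLC48A1 was high in mitoxantrone replicate 1, with 14234 normalized counts against 13069 to 13133 in the other libraries of its group. TFRC was low in control replicate 4, with 33035 normalized counts against 35903 to 36250.1. The BLVRA to BLVRB ratio was high in control replicate 4, at 1.14 against 1.09 in each of the others.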

How the results depend on the processing

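The calls of the 10 genes were recomputed under 21 alternatives per comparison, and no called change turned its sign. With any library left out, 10 of the genes were called for mitoxantrone against control, 8 for pyrimethamine against control and 9 for mitoxantrone against pyrimethamine. In the same order, these fits called 11193 to 11717, 8299 to 8562 and 12565 to 12900 of all 16950 genes tested. The median change of the 10 genes for mitoxantrone against control was 0.37 under quantile normalization, 0.39 with libraries scaled to 1 total, and 0.47 to 0.52 with each library left out. For pyrimethamine against control it was -0.41 with libraries scaled to 1 total, -0.32 under upper-quartile scaling, and -0.37 to -0.34 with each library left out. For mitoxantrone against pyrimethamine the values were 0.65, 0.66 and 0.63 under scaling to 1 total, upper-quartile scaling and quantile normalization, and 0.69 to 0.71 with each library left out. Scaling to 1 total moved the median of all genes to -0.108 for mitoxantrone against control, and the calls over all genes became 4420 higher and 7217 lower for it, beside 5681 and 6064, and 3647 and 5508 for pyrimethamine against control, beside 4477 and 4565.

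With each library left out, the FTH1 to FTL difference ranged over -0.011 to 0.078 for mitoxantrone against control, -0.067 to 0.017 for pyrimethamine against control and 0.023 to 0.099 between the drugs. The BLVRA to BLVRB difference ranged over 0.51 to 0.55, -0.089 to -0.014 and 0.54 to 0.62 in these comparisons, and the HMOX1 to HMOX2 difference over 1.29 to 1.39, -1.47 to -1.41 and 2.74 to 2.83. Without pyrimethamine replicate 1, the adjusted exact p of the ratios that involve pyrimethamine reached 0.0429 in all but FTH1 to FTL. The BLVRA to BLVRB ratio of the other pyrimethamine libraries lay below every control library, so its test also reached the smallest exact p. The other ratio tests that reached 0.0429 were already at their smallest exact p with all libraries. Their adjusted p fell through the adjustment shared by the ratio tests, and not through a lower exact p. Why pyrimethamine replicate 1 had the highest BLVRA to BLVRB ratio of its group was not tested.

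With the replicate number as a block, the same number of the 10 genes was called in each comparison, with 11749 genes over all for mitoxantrone against control, 9057 for pyrimethamine against control and 12931 between the drugs. Libraries with the same number correlated by -0.0133 to 0.0295, not every library correlated best with its own number, and the labels tie the numbers to nothing shared. For the ratios, pairing by number allows no exact p below 0.125 with 4 pairs, so this test passes no ratio at any size, and 5 of 9 stood at that floor. The count of called export genes for mitoxantrone was 1 and became 2 to 3 in 7 alternatives.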
